A study of Homo sapiens with 8 samples.

Results

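The nuclear genes for the enzymes of oxidative phosphorylation were taken as the protein-coding genes of the autosomes and the X chromosome whose symbols begin with NDUFA, NDUFB, NDUFC, NDUFS, NDUFV, UQCR, COX4, COX5, COX6, COX7, COX8 or ATP5, together with SDHA, SDHB, SDHC, SDHD and CYC1, and the complex I assembly factors named NDUFAF were left out. This rule found 91 genes among 19748 coding genes of the GENCODE annotation of GRCh37 (hg19). Of these, 38 belonged to complex I, 4 to complex II, 10 to complex III, 19 to complex IV and 20 to complex V. The 91 included 2 readthrough genes, ATP5MF-PTCD1 and NDUFC2-KCTD14, which share a start region with ATP5MF and NDUFC2, so that 89 separate genes remained. The rule itself is on gene symbols and uses no measured value. NDUFA4 and its paralogue NDUFA4L2 were placed in complex IV.

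Binding of HIF-1β, the subunit common to the HIF dimers, was determined by chromatin immunoprecipitation followed by sequencing (ChIP-seq) in duplicate in 4 established human lines. These were PC-3 (prostate cancer), T47D (breast cancer), A549 (lung cancer) and HCT-116 (colorectal cancer), 1 line for each kind of tumour, and all shared the same treatment, 16 h at 0.5% oxygen, with no genetic change given in the labels. Neither cells in normal oxygen nor a control without antibody was analysed here, so the peaks give occupancy in hypoxia and no induction. Each library was deposited as 1 list of peaks with a score, holding between 1042 and 3790 peaks, and since the lists hold no reads the sequencing depth is unknown. The labels do not say that the replicates came from separate cultures, so any spread between them may be technical.

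Oxidative phosphorylation passes electrons from NADH and succinate along complexes I to IV of the inner mitochondrial membrane to oxygen, and complex V, the ATP synthase, uses the proton gradient formed in this way to make ATP. When oxygen is scarce, HIF-α subunits escape degradation, dimerise with HIF-1β and bind DNA that holds the letters ACGTG or GCGTG. HIF is known for raising glycolytic enzymes and for raising pyruvate dehydrogenase kinase. This kinase inhibits pyruvate dehydrogenase and so limits the entry of pyruvate into the tricarboxylic acid cycle. Of the respiratory subunits, NDUFA4L2 and COX4I2, the paralogues of NDUFA4 and COX4I1, are those best known as hypoxia-inducible.

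For the genes on which the results turn, the DNA around the start of transcription is shown first, read 5′ to 3′ on the strand of the gene from GRCh37. Capitals mark each copy of ACGTG or GCGTG on either strand, so that CACGT and CACGC are the same letters read from the other strand. The 250 bases upstream of the start of COX5A, where HIF-1β was detected in T47D and HCT-116 cells, are given to show how the letters lie in a bound respiratory promoter.
COX5A, chr15:75230415-75230664, minus strand: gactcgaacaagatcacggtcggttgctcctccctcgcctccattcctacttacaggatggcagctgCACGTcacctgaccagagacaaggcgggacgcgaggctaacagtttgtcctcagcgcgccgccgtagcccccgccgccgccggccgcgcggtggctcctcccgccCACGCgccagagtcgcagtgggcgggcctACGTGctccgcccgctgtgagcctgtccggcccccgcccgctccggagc
The window held 3 copies of the letters, at 183, 78 and 49 bases before the start.

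The windows of 25 bases that follow surround the 4 copies lying in all 3 HIF-1β sites at ATP5PO, the respiratory gene bound in the most lines. They also surround the 3 copies nearest to the start of NDUFB8, whose site lies within 2 kb of the start of another coding gene.
ATP5PO, 279 bases after the start, chr21:35287815-35287839, minus strand: gcggggctgcGCGTGccgtaacctt
ATP5PO, 22 bases before the start, chr21:35288116-35288140, minus strand: gccaacgcgcGCGTGcgcccttgcg
ATP5PO, 366 bases before the start, chr21:35288460-35288484, minus strand: tttgtatgcaACGTGagaaaaagcc
ATP5PO, 440 bases before the start, chr21:35288534-35288558, minus strand: ggtaagagagACGTGgtgtccgctc
NDUFB8, 78 bases after the start, chr10:102289536-102289560, minus strand: gcatcccggaACGTGatgccgctgg
NDUFB8, 3 bases after the start, chr10:102289611-102289635, minus strand: cagaagggaaACGTGaagaaggtga
NDUFB8, 53 bases before the start, chr10:102289667-102289691, minus strand: cttcctccgtCACGTttggcccggc
Distances are those of the first base of the copy from the canonical start of the gene.

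Promoter binding of HIF-1β at respiratory subunits was compared with that at all coding genes. A gene was counted as bound in a library when a peak lay within 2 kb of the start of any of its coding transcripts, and as having a site in a line when peaks of both replicates that overlapped by at least 1 bp lay there. In total, 6 of the 91 genes (6.59%) had a site in at least 1 line, whereas 10.7% of all coding genes did. These were ATP5PO, COX5A, NDUFA4, CYC1, NDUFA1 and NDUFB8. A site in at least 2 lines was found at 2 genes (2.20%), ATP5PO and COX5A, against 4.45% of all coding genes. ATP5PO alone (1.10%) had a site in at least 3 lines, against 2.04%, and none had one in all 4 lines, against 0.957%. A peak in at least 1 of the 8 libraries was found at 20 genes (21.98%), against 21.6% of all coding genes, and the remaining 71 (78.0%) had none, against 78.4%. The count of 6 depended on both replicates being required, since with the remaining replicate of a line counted alone it became 16 without T47D replicate 2 and 12 without HCT-116 replicate 3.

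By line, PC-3 cells had sites at 2 of the 91 genes (2.20%, 95% exact binomial interval 0.267 to 7.71%), namely ATP5PO and NDUFA1, beside 2.36% of all coding genes. T47D cells had sites at 3 (3.30%, interval 0.685 to 9.33%), namely ATP5PO, COX5A and NDUFA4, beside 7.44% of all coding genes. HCT-116 cells had sites at 4 (4.40%, interval 1.21 to 10.9%), namely ATP5PO, COX5A, CYC1 and NDUFB8, beside 6.5% of all coding genes. In A549 cells 0 of the 91 genes had a site, for which the exact binomial interval reaches 3.97% (3 counts of 91, the limit that a count of 0 allows, are 3.30%), and 1.87% of all coding genes had one. The ratio of the share of respiratory genes to that of all genes was 0.929 in PC-3, 0.443 in T47D and 0.677 in HCT-116 cells. Its direction was not stable, as it was 1.57 in PC-3 and 1.08 in HCT-116 within 5 kb of a start, and 1.38 in T47D for a peak in either replicate and 1.61 without T47D replicate 2. The counts within 5 kb hold both ATP5MF and its readthrough gene ATP5MF-PTCD1 for the same site. Those ratios were not recomputed without the readthrough gene. In each line the share of all coding genes lay inside the interval of the respiratory genes, so no departure from the background was detectable with 91 genes. The intervals cover counting error only.

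Counted library by library, the replicates of a line differed widely. PC-3 replicates 1 and 2 had a peak at 2 (2.20%) and 4 (4.40%) respiratory genes, beside 2.5% and 6.22% of all coding genes. In T47D, replicate 1 had a peak at 16 (17.6%, interval 10.4 to 27.0%) but replicate 2 at 4 (4.40%), whereas the shares of all coding genes were close to each other, at 10.9% and 10.1%. Thus T47D replicate 1 stood apart from replicate 2 for these genes although the lists were similar in length, with 3061 and 2910 peaks. The 10.9% of all coding genes still lay inside the interval of replicate 1. Neither A549 replicate had a peak at any of the 91 genes, beside 3.02% and 2.25% of all coding genes. HCT-116 replicates 2 and 3 had a peak at 10 (11.0%, interval 5.40 to 19.3%) and 4 (4.40%), beside 14.3% and 6.96%. Readthrough genes shared peaks with their partners, so the 16 genes of T47D replicate 1 had 14 separate peaks and the 10 of HCT-116 replicate 2 had 9. The intervals count every gene as separate. T47D replicate 1 was the only library in which the respiratory genes exceeded the background, by 6.66 percentage points, and in the other 7 the difference lay between -5.70 and -0.299 points.

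**Figure D1:**
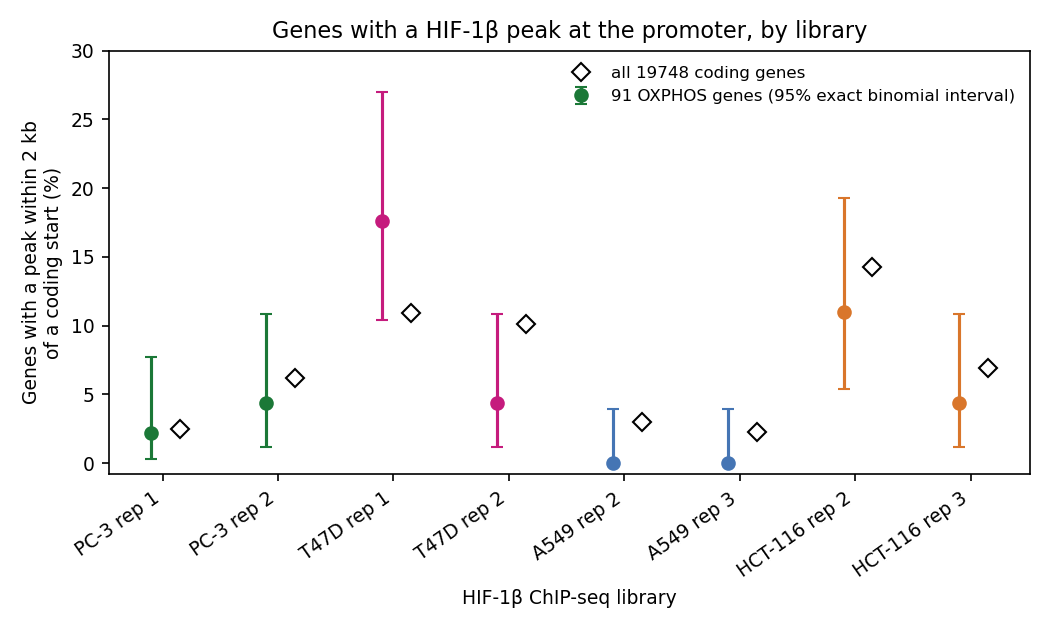
Percentage of genes with a HIF-1β peak within 2 kb of a coding start in each of 8 libraries (x axis), for the 91 respiratory genes (filled circles with 95% exact binomial intervals) and for all 19748 coding genes (open diamonds). The circle lies above the diamond in T47D replicate 1 only, at 17.6% against 10.9%, and at 0 in both A549 libraries.

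Whether the lines differed by more than their replicates was tested by dividing the 8 libraries into pairs in all 105 ways (exact permutation test, one-sided, smallest possible p = 0.00952). For the percentage of respiratory genes with a peak, the lines accounted for 0.558 of the sum of squares (exact permutation p = 0.2, 0.4 adjusted over 2 tests by Benjamini-Hochberg). After subtraction of the percentage of all coding genes in the same library, they accounted for 0.161 (exact permutation p = 0.876, adjusted 0.876). The second result rested on the T47D replicates, which departed from the background in opposite directions, by 6.66 points in replicate 1 and -5.70 points in replicate 2. With either of them left out the exact permutation p was 0.0190, but T47D was then a single library assumed to vary like the other lines, and the value rests on that library.

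Peaks at respiratory genes were also kept between replicates in different proportions. In T47D cells, 17 genes had a peak in either replicate and 3 of them a site (17.6%), while 54.8% of all coding genes with a peak in either replicate had a site. The corresponding values were 4 genes and 2 sites in PC-3 (50% against 37.1%) and 10 genes and 4 sites in HCT-116 (40% against 43.9%). Most of the loss in T47D came from 13 genes with a peak in replicate 1 alone. Those genes had 11 separate peaks, and a median of 71.6% of the peaks in the same list scored higher (range 29.3 to 91.3%). Over all coding genes with a peak in that list and no site, the median was 73.9%, so the peaks at respiratory genes were similar in rank to other promoter peaks of T47D replicate 1 that were not found in replicate 2.

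**Figure D2:**
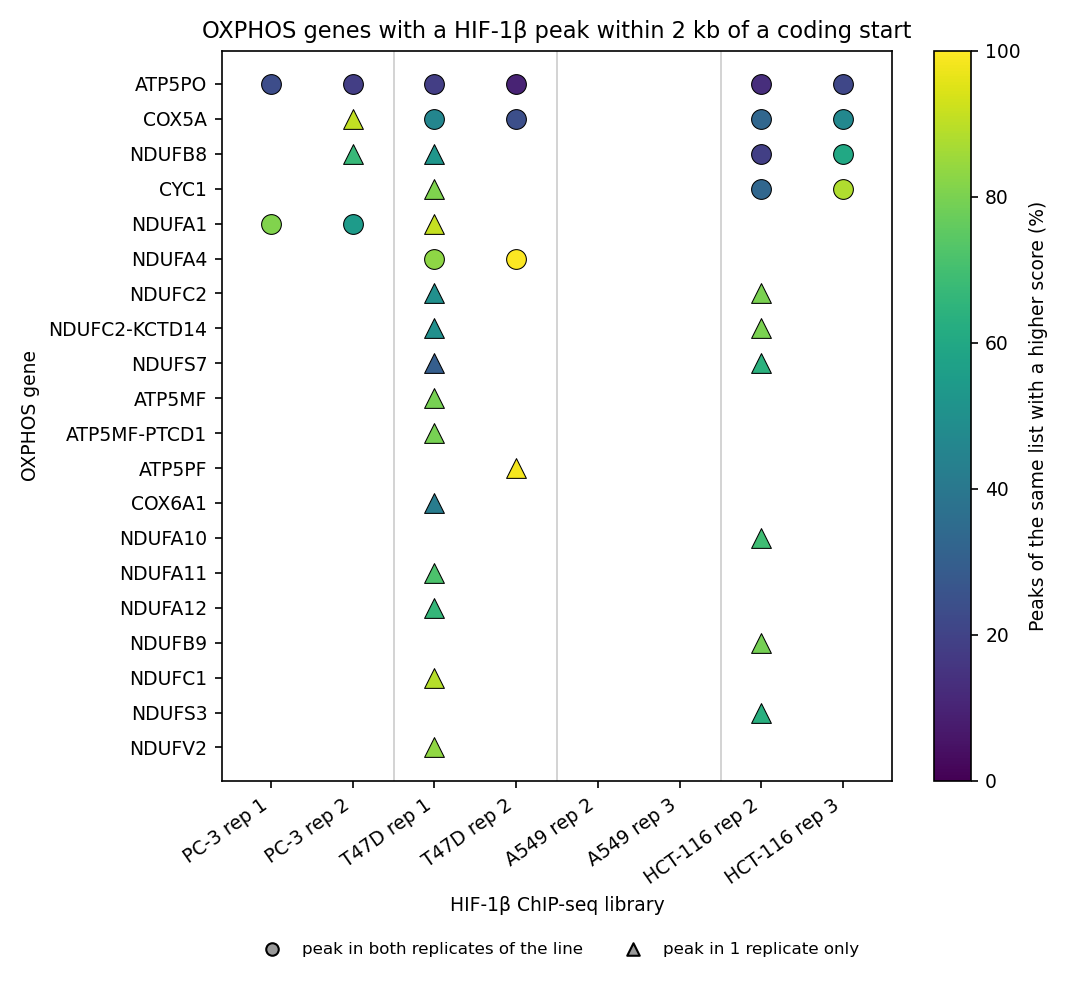
The 20 respiratory genes with a HIF-1β peak within 2 kb of a coding start in at least 1 library (y axis) against the 8 libraries (x axis). Circles mark peaks present in both replicates of a line and triangles those of 1 replicate, and the colour gives the percentage of peaks in the same list with a higher score, from the best peaks (dark) to the lowest (yellow). ATP5PO has 6 circles, and most triangles lie in T47D replicate 1.

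The counts by complex that follow are set beside the 10.7% of all coding genes with a site in at least 1 line. With so few genes in each complex, they are not read as a difference between complexes. In complex V, ATP5PO was the only one of 20 genes with a site. It encodes the oligomycin sensitivity conferral protein of the peripheral stalk, which holds the catalytic head of the ATP synthase in place against the rotor. Its site lay at chr21:35287089-35288847 in PC-3, chr21:35287585-35288759 in T47D and chr21:35287531-35288741 in HCT-116 cells, covering exon 1, the start, part of the lncRNA gene LINC00649 and part of another annotated coding gene that has no symbol. The scores were 167.93 and 195.69 in PC-3 replicates 1 and 2, 172.3 and 323.95 in T47D replicates 1 and 2, and 293.37 and 199.6 in HCT-116 replicates 2 and 3, with no peak in either A549 library. In every one of these 6 lists the peak was among the higher-scoring, since between 9.73% (T47D replicate 2) and 23.3% (PC-3 replicate 1) of peaks scored higher. Its centre lay within 140 bp of the canonical start, and all 4 copies of the letters shown above were inside the site in all 3 lines.

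In complex IV, 2 of 19 genes had a site, COX5A and NDUFA4. COX5A encodes a nuclear subunit of cytochrome c oxidase, the enzyme that hands electrons to oxygen. Its site covered exon 1 and the start, at chr15:75229821-75231134 in T47D and chr15:75229734-75231082 in HCT-116 cells. Scores were 89.49 and 157.68 in T47D replicates 1 and 2 and 138.87 and 97.94 in HCT-116 replicates 2 and 3, and a peak of score 54.17 was present in PC-3 replicate 2 but not in replicate 1. The peak was thus of middle rank in T47D and HCT-116, with 24.1 to 46.7% of peaks scoring higher, and among the lowest in PC-3 replicate 2, with 90.8% scoring higher. The site held 5 copies of the letters in both lines, of which 2 lay in its central 200 bp.

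NDUFA4 encodes a subunit that was first assigned to complex I and is now placed in cytochrome c oxidase. Its site at chr7:10979042-10980533, over exons 1 and 2, was found in T47D cells alone. The scores of 57.19 in replicate 1 and 50.21 in replicate 2 lay close to the lowest values of their lists, where 83.1% and 99.6% of peaks scored higher. The site held 4 copies of the letters, none of them in the central 200 bp. In the other 6 libraries the nearest peak to NDUFA4 was at least 1270559 bp away.

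Complex III had 1 gene with a site among 10, and complex II none among 4. CYC1 encodes cytochrome c1, the haem protein that passes electrons from complex III to cytochrome c. The site, which met exons 1 to 3, was found in HCT-116 cells, with scores of 138.45 in replicate 2 and 56.15 in replicate 3, and T47D replicate 1 had a peak of score 58.45 that replicate 2 did not. The peak was of middle rank in HCT-116 replicate 2, where 33.1% of peaks scored higher, and of low rank elsewhere, with 88.2% in HCT-116 replicate 3 and 80.7% in T47D replicate 1. SDHA, SDHB, SDHC and SDHD, the subunits of succinate dehydrogenase, had no peak in any library, as was the case for 78.4% of all coding genes.

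In complex I, 2 of 38 genes had a site, NDUFA1 and NDUFB8, both accessory subunits, and each lay close to the start of a coding gene of another kind. The NDUFB8 site at chr10:102288881-102290423 in HCT-116 cells covered exons 1 and 2, and the start of HIF1AN lay within 2 kb of it. HIF1AN encodes factor inhibiting HIF (FIH), an oxygen-dependent asparaginyl hydroxylase that limits HIF activity, so the peak cannot be given to either gene from its position. Its scores were 224.44 and 78.87 in HCT-116 replicates 2 and 3, 69.41 in PC-3 replicate 2 and 80.4 in T47D replicate 1. The other 4 libraries had no peak there. Between 18.7% (HCT-116 replicate 2) and 67.2% (PC-3 replicate 2) of peaks scored higher.

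At NDUFA1 the site lay at chrX:119004349-119005571 in PC-3 cells, upstream of the gene by 224 bp, and it met the neighbouring gene RNF113A, which encodes a zinc finger protein of the spliceosome, and no exon of NDUFA1. The scores were 58.71 and 82.1 in PC-3 replicates 1 and 2, and 53.36 for a peak over the NDUFA1 start in T47D replicate 1 that overlapped the end of the PC-3 site. These were low to middle ranks, with 81.0%, 54.4% and 91.3% of peaks scoring higher. Of the 6 genes with a site, NDUFA1 and NDUFB8 were the only 2 whose site also lay within 2 kb of the start of a coding gene outside the list. Noncoding genes were left out of this count. The ATP5PO sites met the lncRNA gene LINC00649 and the NDUFA4 site met another lncRNA gene, so those peaks may also belong to them.

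**Figure D3:**
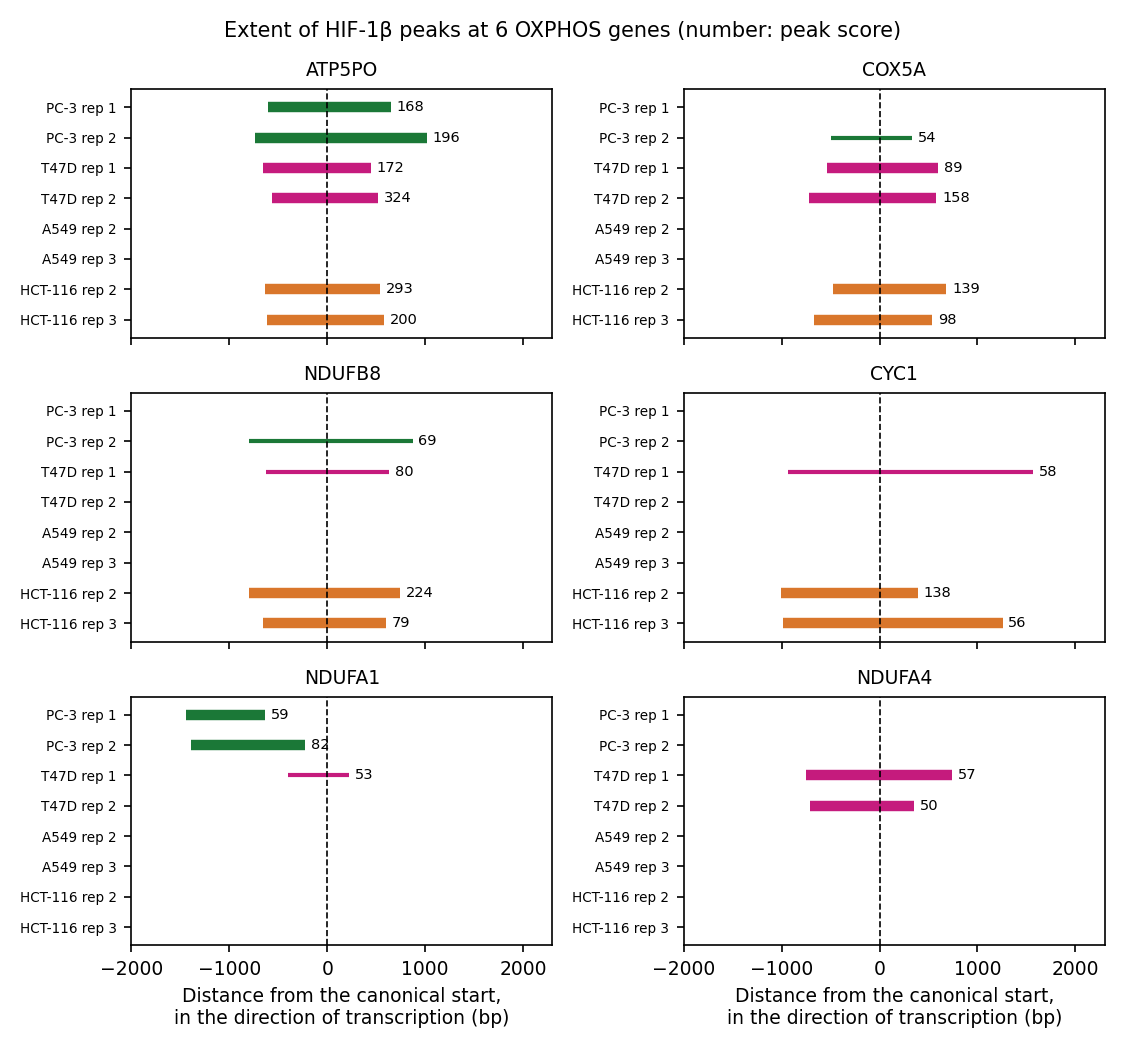
Extent of each HIF-1β peak at the 6 respiratory genes with a site, as distance from the canonical start in bp in the direction of transcription (x axis, the start at 0) for 8 libraries (y axis). Thick bars are peaks present in both replicates, thin bars those of 1 replicate, colours separate the lines, and the number beside a bar is its score rounded to a whole number. Bars cross the start at all genes but NDUFA1 in PC-3 cells, where both end upstream of it.

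A further 14 genes (15.4%), among them both readthrough genes, had peaks in 1 replicate of a line and no site, against 10.9% of all coding genes. They are named here after their values were seen. Of these, 10 belonged to complex I, 3 to complex V and 1 to complex IV. NDUFS7, a catalytic-core subunit of complex I that carries an iron-sulphur cluster, scored 122.73 in T47D replicate 1 and 76.91 in HCT-116 replicate 2. NDUFC2 scored 84.32 and 62.83 in the same libraries, and its readthrough gene shares both peaks. Those were the only genes of the 14 with peaks in more than 1 library. COX6A1, a subunit of cytochrome c oxidase, scored 95.63 in T47D replicate 1. The remaining peaks, at NDUFA10, NDUFA11, NDUFA12, NDUFB9, NDUFC1, NDUFS3, NDUFV2, ATP5MF with its readthrough gene, and ATP5PF, scored between 50.88 and 77.86. At 8 of the 14 genes the peak lay within 2 kb of another coding gene, for example GABPA beside ATP5PF, so that these peaks cannot be assigned to the respiratory gene by position.

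NDUFA4L2 and COX4I2 had no peak within 2 kb in any of the 8 libraries. The nearest peaks to NDUFA4L2 were 109180 and 70575 bp away in PC-3 replicates 1 and 2, 125529 and 123936 bp in T47D replicates 1 and 2, 69424 and 70600 bp in A549 replicates 2 and 3, and 109058 and 109083 bp in HCT-116 replicates 2 and 3. The nearest sites of both replicates lay beside other genes, within 449 bp of an LRP1 start in PC-3 and HCT-116 and over a NAB2 start in T47D. In A549 the nearest site was 19701 bp from LRP1. No library therefore showed a HIF-1β peak that was near NDUFA4L2.

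COX4I2 had a site at 26545 bp in PC-3, 28649 bp in T47D, 26462 bp in A549 and 26607 bp in HCT-116 cells, all outside the 2 kb window. The nearest coding start to each was that of ID1, an inhibitor of basic helix-loop-helix factors. The T47D site lay 1557 bp from ID1 and did not overlap the others, which lay 4657 bp from it in PC-3, 4881 bp in A549 and 4810 bp in HCT-116. T47D replicate 1, but not replicate 2, also had a peak that overlapped the sites of the other lines, at chr20:30197912-30199892. Its score was 55.71, with 86.2% of peaks scoring higher. In A549 cells, where no respiratory gene had a promoter peak, the distal site scored 214.45 and 233.07, with 21.7% and 17.5% of peaks scoring higher. Which gene these sites act on was not tested. COX4I1, the isoform used in most tissues, had its nearest peak between 152442 and 391834 bp away.

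The letters ACGTG or GCGTG were found in all 9 sites at respiratory genes, and in 7 of the 9 within the central 200 bp. Among all promoter sites of a line, between 98.8% (A549) and 99.7% (HCT-116) held them, and between 69.6% (T47D) and 77.5% (PC-3) did in the central 200 bp. In the window from 250 bases before to 50 bases after the canonical start, 54 of 90 respiratory genes (60%) held the letters, as did 56.7% of 19471 promoters of all coding genes and 14 of 16 promoters of glycolytic enzymes (87.5%). Of the genes with a site, COX5A and NDUFA1 had 3 copies, CYC1 and NDUFB8 had 2, ATP5PO had 1 and NDUFA4 had none.

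Other genes that bear on mitochondrial respiration were counted in the same way. Shares are set beside those of all coding genes given above, 2.36% in PC-3, 7.44% in T47D, 1.87% in A549 and 6.5% in HCT-116. For a site in all 4 lines, the share of all coding genes was 0.957%. Among 7 genes linked to the control of respiration in hypoxia, the same 4 (57.1%) had a site in all 4 lines, LONP1, PDK1, BNIP3 and MXI1. LONP1 encodes a mitochondrial protease, PDK1 a pyruvate dehydrogenase kinase, BNIP3 a receptor for mitophagy and MXI1 an antagonist of MYC. In every library the LONP1 peak also lay within 2 kb of a start of CATSPERD, so it cannot be given to either gene from its position. HIGD1A, ISCU and C15orf48 had none in any line. Assembly factors of the complexes, 51 genes, had sites at 1 in PC-3 (1.96%), 6 in T47D (11.8%), 1 in A549 (1.96%) and 4 in HCT-116 (7.84%). COX20, which helps to assemble cytochrome c oxidase, was the one bound in all 4 lines. Of 10 regulators of mitochondrial biogenesis, YY1 had a site in T47D (10%), and NRF1, TFB1M, POLRMT and YY1 had one in HCT-116 (40%). Of 13 enzymes of the tricarboxylic acid cycle, 1 had a site in T47D and 1 in HCT-116 (7.69% in each). Glycolytic enzymes had sites at 14, 15, 13 and 15 of 16 genes in PC-3, T47D, A549 and HCT-116, and 12 of them in all 4 lines, namely HK2, GPI, PFKL, ALDOA, ALDOC, TPI1, GAPDH, PGK1, PGAM1, ENO1, PKM and LDHA.

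**Figure D4:**
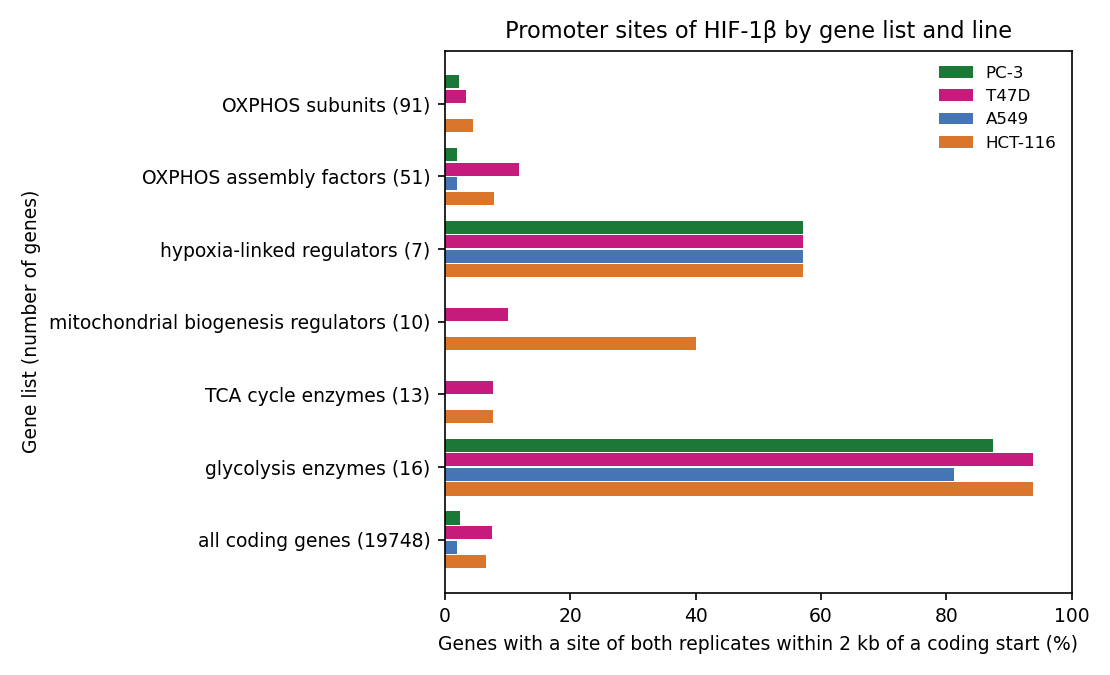
Percentage of genes with a HIF-1β site of both replicates within 2 kb of a coding start (x axis) for 6 gene lists and for all coding genes (y axis, with the number of genes), with 1 bar per cell line. Bars of the respiratory subunits end at or below 4.40%, and those of the glycolytic enzymes lie between 81.2 and 93.8%.

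The promoter peak of PDK1 scored above that of every respiratory gene in each list. It had scores between 962.58 (A549 replicate 2) and 3100 (HCT-116 replicate 2), and no more than 2.26% of the peaks of any list scored higher. LONP1 ranged from 208.83 (A549 replicate 3) to 1661.54 (HCT-116 replicate 2) and COX20 from 166.5 (PC-3 replicate 1) to 974.96 (PC-3 replicate 2). ATP5PO, the respiratory gene with the highest scores, was below PDK1 in each of the 6 lists in which it had a peak. It was below LONP1 in the same 6 lists, and above COX20 in PC-3 replicate 1 alone, by 167.93 to 166.5. It was above BNIP3 in PC-3 replicate 1, by 167.93 to 104.62, and in T47D replicate 2, by 323.95 to 262.27, and below MXI1 in all 6. In A549 cells PDK1, LONP1, BNIP3, MXI1 and COX20 all had peaks in both libraries, and none of the 91 respiratory genes did. The former genes were chosen for a site in all 4 lines, so their A549 peaks follow from that choice and the contrast is no result. Of all coding genes, 3.02% had a peak in A549 replicate 2 and 2.25% in replicate 3.

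**Figure D5:**
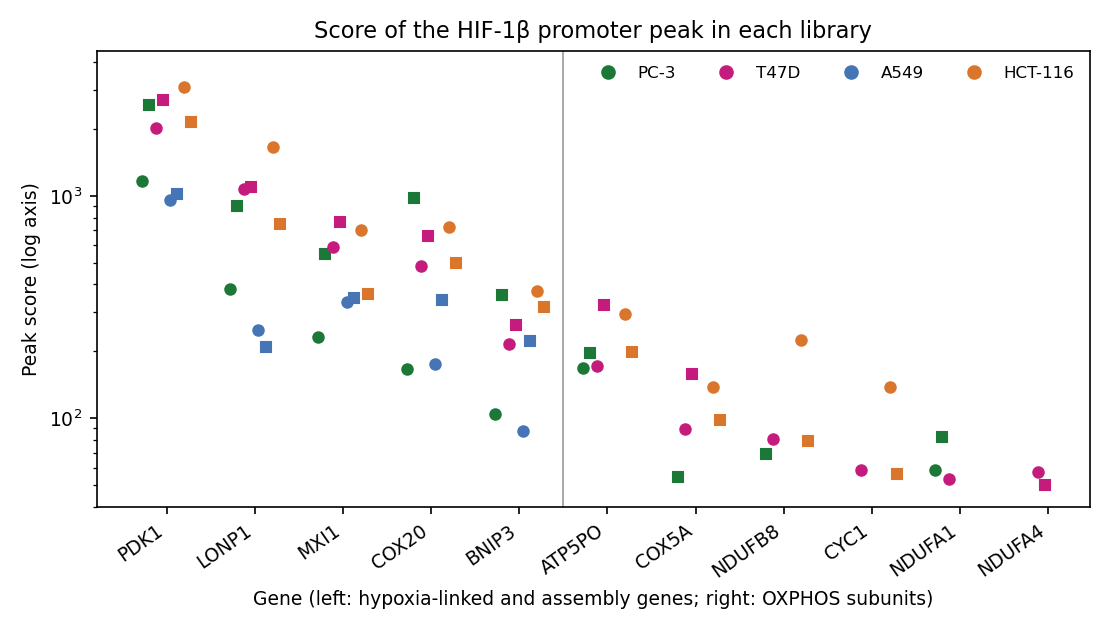
Score of the HIF-1β promoter peak (y axis, log scale) in each library for 5 hypoxia-linked or assembly genes bound in all 4 lines (left) and the 6 respiratory genes with a site (right). Colours separate the lines, circles are the lower-numbered and squares the higher-numbered replicate, and a missing point means no peak. No A549 point is present on the right, and PDK1 lies above every respiratory gene, at 962.58 or more. The genes on the left were chosen for a site in all 4 lines, so they have A549 points by that choice.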

How the data were processed

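HIF-1β ChIP-seq was performed in 8 libraries, 2 replicates of each of 4 lines. The submitters' processing notes list Trim Galore 0.3.3, BWA 0.7.5a-r405, SAMtools 0.1.19, Picard 1.106, bedtools 2.17.0 and MACS (version not stated) on GRCh37. The authors deposited 1 peak list per library, with an interval and a score for each peak. No header explains the score, whose lowest value was between 50 and 50.09 in every list, so scores were ranked only within a list. The study's methods also name T-PIC, a step that the lists do not show.

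Peaks of both replicates overlapping by at least 1 bp were merged into sites and set against the starts of coding transcripts in GENCODE release 44 lifted to GRCh37. Python 3.11.15 with NumPy 2.4.6, SciPy 1.17.1 and pysam 0.24.0 was used, figures were drawn with Matplotlib 3.10.9, and the counting was tested on simulated data against bedtools 2.31.1. Intervals are Clopper-Pearson intervals. Lines were compared by exact permutation tests, which measure only the spread between these libraries. Genes named were NDUFA4L2, COX4I2, every respiratory gene with a site and, of the other lists, genes with a site in all 4 lines, and others were named after their values were seen. The 91 genes and the 5 comparison lists were chosen with earlier results of these data known. No list was tested against other genes, and the permutation tests compared cell lines only. The alternatives were other overlaps, windows, starts, score limits and replicate rules. Some items are not reported here.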

Additional observations from a re-analysis of the deposited data

How the results depend on the processing

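Counts of respiratory genes with a site in PC-3, T47D, A549 and HCT-116 cells depended most on the replicate rule and the window. With a peak of either replicate they were 4, 17, 0 and 10, with 20 genes in at least 1 line, and the ratio to all coding genes became 0.689 in PC-3 and 1.38 in T47D. Within 5 kb of a start they were 4, 6, 2 and 7, with ratios of 1.57 in PC-3, 0.989 in A549 and 1.08 in HCT-116. ATP5MF and its readthrough gene, which share the same site, were both in these counts in every line. With the higher-scoring 50% of each list, 1 gene remained in PC-3, 2 in HCT-116 and 2 in at least 1 line. With each site given to the nearest gene, PC-3 had 1 gene (ratio 0.535) and the HCT-116 ratio was 0.798. The PC-3 ratio was 1.12 with 1 start per gene and 1.07 within 500 bp. With each replicate left out in turn, the counts were 2 to 4 in PC-3, 4 to 16 in T47D, 0 in A549, 4 to 10 in HCT-116 and 6 to 16 in at least 1 line (16 without T47D replicate 2, 12 without HCT-116 replicate 3), and the ratios were 0.707 to 0.880, 0.436 to 1.61, 0 and 0.632 to 0.768. The exact permutation p-values were then 0.0667 to 0.486 for the percentage of respiratory genes and 0.0190 to 0.924 after subtraction of the background, a range added after seeing the data. NDUFA4L2 and COX4I2 had a site in 0 lines under every alternative run. Single lists have no replicate rule or overlap, so neither alternative applied to the tests. Causes were not tested. The lists hold no reads, so a gene without a peak may have binding below the limit of detection.

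The replicate numbers were shared only in part (1 and 2 in PC-3 and T47D, 2 and 3 in A549 and HCT-116), and deviations of same-numbered libraries correlated at 0.00732 and 0.0449 across 19748 genes, so the numbers were not taken to pair the samples. With the replicate block, the exact permutation p-values were 0.333 and 0.792 over 24 arrangements (smallest possible 0.0417).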

Other observations

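ATP5MF, which encodes a subunit of the membrane part of the ATP synthase, had a HIF-1β site in all 4 lines outside the 2 kb window but within 5 kb. The site lay 4816 bp from its start in PC-3, 4683 bp in T47D, 4743 bp in A549 and 4519 bp in HCT-116 cells, and 617 to 804 bp from the start of ZNF789, a zinc finger gene. Its scores were 53.2 and 245.13 in PC-3 replicates 1 and 2, 207.75 and 148.6 in T47D replicates 1 and 2, 172.06 and 78.6 in A549 replicates 2 and 3, and 886.07 and 363.52 in HCT-116 replicates 2 and 3. It was the only site within 5 kb of a respiratory gene in A549 cells, and it also accounts for the readthrough gene ATP5MF-PTCD1.

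Within 25 kb of a start, a site was found for 7 respiratory genes in PC-3 (7.69%, against 5.58% of all coding genes), 10 in T47D (11.0% against 13.3%), 3 in A549 (3.30% against 4.60%) and 13 in HCT-116 (14.3% against 11.9%). UQCR11, a small subunit of complex III, had one at 12711 bp in PC-3, 12777 bp in T47D and 12787 bp in HCT-116. These genes were chosen after their values were seen.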
